A study of Mus musculus with 4 samples.

Results

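The 300 transcripts with the highest density of DDX3X CLIP-seq reads in resting mouse embryonic fibroblasts were described, out of 59988 transcripts in the deposited tables. In CLIP-seq, ultraviolet irradiation of cells bonds RNA to the proteins that touch it, an antibody precipitates one of these proteins, and the RNA that comes with it is sequenced. The wild-type fibroblasts, a cell type cultured from mouse embryos, were given DMSO as vehicle (called rest here) or thapsigargin at 400 nM, both for 1 h, and all received 3 doses of 400 mJ/cm2 at 254 nm before precipitation with a custom rabbit antibody to DDX3X. Each of the 2 groups had 2 libraries. The labels do not say whether they came from separate cultures, so p-values measure the spread between these libraries, which may be technical.

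Density was the deposited TPM, which divides a count by the length of the transcript and scales each library to the same sum. The 300 were selected on the mean TPM of both rest libraries. The most abundant transcript of the table (uc012ath.2, 5818 nt) and 1252 rows whose identifiers start with uc007p or uc008q were left out before ranking. Rows shorter than 500 nt were left out as well. Rows with no count in any library also dropped out, because no length could be recovered for them. Of all 59988 rows, 49277 had at least 1 count, and 46436 were ranked. The rest values therefore chose the 300, and a fold change against those same values is biased downward, because a row whose rest values were high by chance was more likely to be chosen. The tables hold no gene names and 0 of their identifiers matched the RefSeq gene table used here, so transcripts are given by density rank and length, 4 of them also by identifier, and no sequence, gene or coordinate is printed. Neither input RNA nor total RNA was analysed here, so more DDX3X on an RNA and more of that RNA cannot be told apart.

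DDX3X is an ATP-dependent RNA helicase of the DEAD-box family that contacts many messenger RNAs and takes part in the start of translation, above all on messengers with structured leader sequences. Thapsigargin blocks the pump that fills the endoplasmic reticulum (ER) with calcium. The calcium loss disturbs protein folding in the ER, and the stress response that follows slows translation initiation across the cell and can gather DDX3X and untranslated messengers in stress granules.

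The libraries differed in depth, with 10088691 and 2405801 total counts at rest and 10463359 and 3902900 with thapsigargin, so replicate 2 was the shallower one in both groups. The densest transcripts were well covered all the same. Their median count was 2329 and 513 in the rest libraries and 2371 and 925 with thapsigargin, and the lowest count of any of them in any library was 124. All 300 passed the count filter of the test. The median over all 29059 transcripts tested was 143, 32, 153 and 56 counts in the same order of libraries.

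Mean TPM at rest ran from 3017 at rank 1 to 245 at rank 300, with a median of 353. The limit cut through a dense range. The last 3 ranks inside it had mean rest TPM of 245.4, 244.7 and 244.6, and the first 3 outside had 244.5, 244.4 and 244.0. The median over all transcripts tested was 12.3 TPM at rest. The values at rest spread steeply at the top, where the first 100 ranks had a median of 614 TPM, against 353 for the next 100 and 266 for the last 100.

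The densest transcripts were short for this table. Their median length was 1291.5 nt (quartiles 807 and 2075), against 2825 nt (1826 and 4138) for the other tested rows of 500 nt or more. Lengths from 500 to under 1000 nt made up 35.7% of the 300 and 6.65% of all rows tested, and lengths of 5000 nt or more made up 2.33% and 14.7%. TPM has length in its denominator and the ranking used TPM, so this is a description of the choice. The 7 transcripts of at least 5000 nt included one of 18100 nt at rank 220, which had the largest count of the 300 in rest replicate 1, 24414. Its TPM was 316 and 249 at rest and 279.5 and 227.4 with thapsigargin, and these ranges overlap.

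Many of the 300 repeated each other. They formed 238 groups when neighbouring rows of the table with counts within 10% of each other in all 4 libraries, or rows with identical counts, were merged: 110 transcripts lay in 48 such sets, the largest of 4. Of the 300, 163 lay in 64 runs of at least 2 rows that are next to each other in the table, and 137 stood alone. The 100 densest transcripts came from 67 runs and single rows. Rows of a run may share reads, so 300 is not a number of independent genes.

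**Figure D1:**
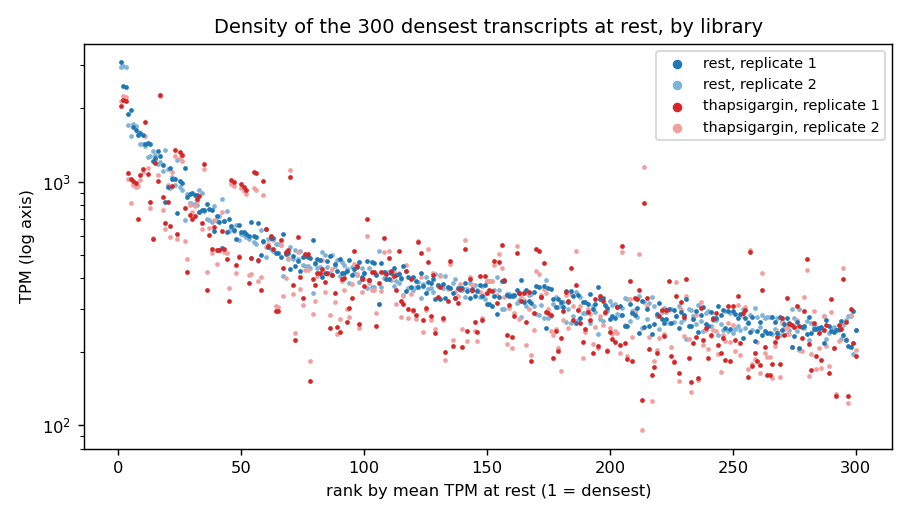
TPM (log axis) of each of the 300 densest transcripts in each of the 4 libraries, against its rank by mean TPM at rest. The rest libraries follow the ranking because they set it, while the thapsigargin libraries lie below them at ranks 1 to 10 and on both sides of them further down.

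The first question was whether the transcripts that were densest at rest were also densest with thapsigargin, whose values had no part in the choice. Of the 300, 232 (77.3%) were among the 300 densest with thapsigargin under the same exclusions. The median density of the 300 with thapsigargin was 328 TPM, from 111 to 2249, against 10.98 over all rows tested. All 10 of the densest rows with thapsigargin were among the 300, and all 10 lay within the first 35 ranks at rest. Of the 10 densest at rest, 3 stayed among the 10 densest.

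The lists of single libraries overlapped more within a group than between groups. The 300 densest rows of the rest replicates shared 262 rows, and those of the thapsigargin replicates shared 271. Across groups the 4 pairs of libraries shared from 226 to 231. The pair of replicate 1 libraries, the deepest in the study, shared 226, the fewest of all pairs. In all, 204 rows were among the 300 densest of every library. Across the 300 transcripts Pearson's r of log2(TPM + 0.5) was 0.943 between the rest replicates and 0.975 between the thapsigargin replicates. Between groups it was 0.800 to 0.821. Over all 29059 rows tested r was 0.951, 0.974 and 0.923 to 0.964 in the same order. There the rest pair lay within the range between groups. These coefficients run over transcripts that share libraries and partly share reads, and the rest pair was used in the choice.

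**Figure D2:**
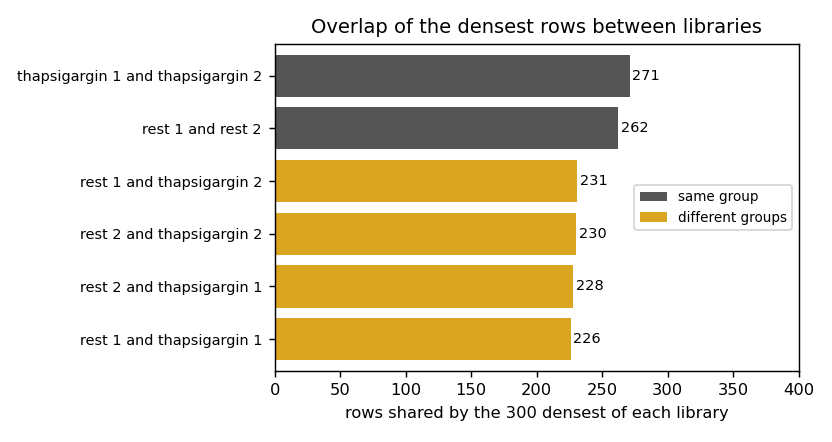
Number of rows shared by the 300 densest rows of each pair of libraries, with pairs of the same group in grey and pairs of different groups in yellow. Pairs of the same group shared 262 and 271 rows, and pairs of different groups shared 226 to 231.

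The 68 that dropped out of the thapsigargin list were mostly from the lower ranks: 51 of them had rest ranks over 200, and 2 came from the 100 densest. Their ranks with thapsigargin ran from 301 to 1012 with a median of 400.5. Of the 300, 9 moved up by at least 100 ranks and 76 moved down by as many. A transcript near rank 1 cannot move up by 100, so the counts are not comparable as directions.

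Of the 300, 44 were higher and 48 lower with thapsigargin at an adjusted p under 0.05 in edgeR's quasi-likelihood test, fitted on all rows. Among all 29059 rows tested, 3.74% were called higher and 3.67% lower, or 7.41% in either direction. The comparison with all rows is uneven, because deeper rows are called more often: of 2275 rows with a mean of at least 500 counts that were not among the 300, 12.2% were called higher and 9.63% lower, against 14.7% and 16.0% of the 300. The median SE of the log2 fold change was 0.13 for the 300, 0.14 for those 2275 rows and 0.26 for all rows tested. Since the rule used the rest values of this contrast, nothing is read from the counts of the 300 set against these shares. With near-identical rows merged and single rows counted as groups of their own, the calls came from 33 groups for the higher and 40 for the lower. Counted by runs and single rows, they came from 27 and 36.

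The median log2 fold change of the 300 was 0.018, from -1.30 to 1.97, against 0.0020 over all rows tested. Libraries were scaled by TMM, which takes most rows as unchanged. On the deposited TPM the median was -0.16 for the 300 and -0.15 for all rows tested. With library-size scaling the medians were 0.10 and 0.07. Both medians thus shifted in the same direction with the scale, and single rows need not have done so. The rest values that chose the 300 enter these medians. Library-size scaling called 58 of the 300 higher and 29 lower, or 66.7% higher against 47.8% with TMM, where it called 7.86% of all rows. Limma on the deposited TPM called 24, of which 6 were higher, and 2.37% of all rows. Without thapsigargin replicate 1, which left that group with its shallow library, edgeR called 59, 36 higher and 23 lower, and 3.75% of all rows.

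The groups did not overlap in CPM, counts scaled to library size after TMM, for 96 transcripts that were higher and 104 that were lower with thapsigargin, where all rows gave 26.1% and 25.2%. In TPM they did not overlap for 58 higher and 152 lower, where all rows gave 14.9% and 37.5%. Of the 300, 134 (44.7%) had a log2 fold change between -0.25 and 0.25, against 51.3% of the 2275 other deep rows. A change past 1 on the log2 scale was found in 8 of the 300, of which 6 were higher and 2 lower, and all 8 were called. Among all rows tested 3.11% were past 1 and 1.81% past -1.

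**Figure D3:**
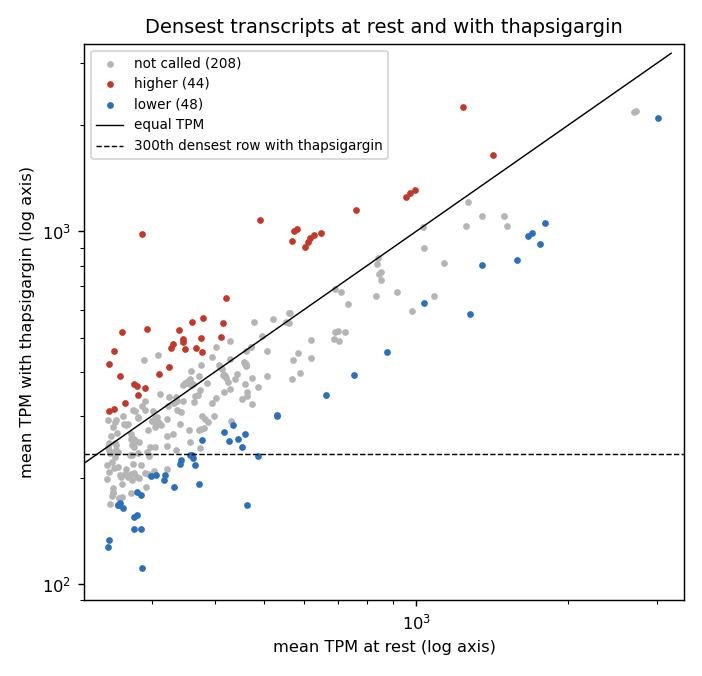
Mean TPM with thapsigargin against mean TPM at rest (both log axes) for the 300 densest transcripts, coloured by edgeR call. The solid line marks equal TPM and the dashed line the 300th densest row with thapsigargin, under which 68 transcripts lie.

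To keep the compared rest values out of the choice, rows were chosen on 1 rest library and the change was read against the other. Log2 CPM after TMM scaling was used. The 300 rows densest in rest replicate 1 had a median log2 ratio of thapsigargin to rest of -0.013 against the unused replicate 2 and of 0.024 against replicate 1 itself. The 300 densest in rest replicate 2 had 0.062 against the unused replicate 1 and -0.061 against replicate 2. The medians over all rows tested were 0.0051 against replicate 2 and -0.0069 against replicate 1. Against the used library the median was the higher for rows chosen on replicate 1 and the lower for rows chosen on replicate 2. The rest libraries also differ in depth, so the size of the bias is not read from these values. With the unused library, 148 and 165 of the 300 had a ratio above 0. The balance of calls moved with the values used for the choice, all of which enter the contrast. The 300 rows densest with thapsigargin held 95 called higher and 21 called lower. The 300 densest by the mean of all 4 libraries held 69 and 35, where 3.74% of all rows were called higher and 3.67% lower. Choosing on thapsigargin values favours higher calls, so nothing is read from these counts.

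Of the 10 densest transcripts, 6 were called lower with thapsigargin and 0 higher. All 10 had a negative log2 fold change, with a median of -0.48, and ranks 2, 3, 9 and 10 did not pass the test. The same rest values chose these rows and enter the fold change, so nothing is read from the count against the 3.67% of all rows and 9.63% of the 2275 other deep rows that were called lower. Both rest libraries on their own gave the same 10 transcripts. The median log2 ratio was -0.48 against rest replicate 2 (negative for 10 of 10) and -0.45 against rest replicate 1 (negative for 8 of 10), and in both readings the rest library compared had no part in the choice. Under RLE and library-size scaling all 10 were negative, with 6 and 5 called, where 7.39% and 7.86% of all rows were called in either direction. On TPM all 10 were negative, with a median of -0.65 and 0 called by limma, against 2.37% of all rows. Without thapsigargin replicate 1 the median log2 fold change was -0.43. The rest values that chose the 10 enter each of these fits, so the signs and counts are a description. Ranks 2 and 3 and ranks 6 and 7 are near-identical pairs, so the 10 transcripts make up 8 groups once such rows are merged.

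Rank 1, of 1511 nt, had 3089 and 2945 TPM at rest and 2044 and 2140 with thapsigargin. Both thapsigargin libraries were below both rest libraries, and its log2 ratio of -0.35 ± 0.11 (SE) was just past the threshold in edgeR's test (adjusted p = 0.0462). In TPM its log2 difference was -0.53. Here and below, log2 ratios and changes given with an SE are edgeR's after TMM scaling, while the TPM values beside them are on another scale. Rank 1 at rest was rank 4 with thapsigargin.

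Ranks 2 and 3, of 677 and 683 nt, had the same counts in every library. Rank 2 had 2465 and 2981 TPM at rest and 2160 and 2242 with thapsigargin. The spread between the rest replicates was as wide as the distance to the thapsigargin values, and the change of -0.14 ± 0.13 (SE) did not pass (edgeR adjusted p = 0.594). The pair kept ranks 2 and 3 with thapsigargin.

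Rank 4, of 1254 nt, had 1899 and 1704 TPM at rest and 1090 and 1020 with thapsigargin, a drop that passed in edgeR (log2 ratio -0.60 ± 0.11 SE, adjusted p = 0.000991). Rank 5, of 651 nt, had 1976 and 1546 TPM at rest and 1021 and 818 with thapsigargin, and fell by 0.76 ± 0.13 (SE) on the log2 scale (edgeR, adjusted p = 0.000216). The groups were far apart in both, and rank 5 moved to rank 28 with thapsigargin.

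Ranks 6 and 7, of 970 and 991 nt, were a near-identical pair, with 1669 and 1730 TPM at rest and 1006 and 970 with thapsigargin for rank 6. The pair fell by 0.61 ± 0.12 (SE) on the log2 scale (edgeR, adjusted p = 0.00121). Rank 8, of 502 nt and thus close to the length limit, had 1557 and 1604 TPM at rest but 701 and 962 with thapsigargin. It fell by 0.75 ± 0.14 (SE) on the log2 scale (edgeR, adjusted p = 0.00110), although its thapsigargin replicates differed more from each other than its rest replicates did.

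Ranks 9 and 10, of 694 and 1131 nt, had no overlap between groups but did not pass. Rank 9 had 1591 and 1430 TPM at rest and 1066 and 1011 with thapsigargin (edgeR adjusted p = 0.0561). Rank 10 had 1551 and 1433 TPM at rest and 1126 and 1091 with thapsigargin (edgeR adjusted p = 0.190).

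Longer lists had medians closer to 0 than the 10 densest. The 50 rows densest in rest replicate 1 had a median log2 ratio of -0.17 against the unused replicate 2, and the 100 densest had -0.060. Read the other way, the 50 densest in rest replicate 2 had -0.094 against replicate 1, and the 100 densest 0.032. In edgeR's fit, the first 100 ranks had 15 higher and 21 lower calls (median -0.12), the next 100 had 16 and 14 (median 0.081), and the last 100 had 13 and 13 (median -0.017), where all rows gave 3.74% higher and 3.67% lower. Of the 15 higher calls in the first 100 ranks, a run of 9 adjacent rows held 9 and a run of 3 held 3. Rows of a run may share reads. The rank classes were cut on rest values that enter the contrast, so their counts are a description. Spearman's rho between log2 fold change and rest density over the 300 was -0.087.

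By length, transcripts of 1000 to under 2000 nt had the most higher calls, 24 of 113, with 14 lower and a median log2 fold change of 0.090. Of these 24 calls, 9 came from a single run of adjacent rows of 1216 to 1445 nt, which may share reads. Transcripts of 500 to under 1000 nt had 14 higher and 18 lower of 107, with a median of -0.069. Those of 2000 to under 5000 nt had 6 higher and 14 lower of 73, with a median of -0.058. The 7 longest, of 5000 nt or more, had 0 higher and 2 lower calls by edgeR. Among tested rows outside the 300, the same 4 classes from short to long had 7.06%, 4.08%, 2.77% and 1.76% called higher and 3.45%, 2.31%, 3.47% and 5.80% called lower. Length and log2 fold change were nearly unrelated over the 300 (Spearman's rho = -0.0017), and the differences between these classes were not tested.

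**Figure D4:**
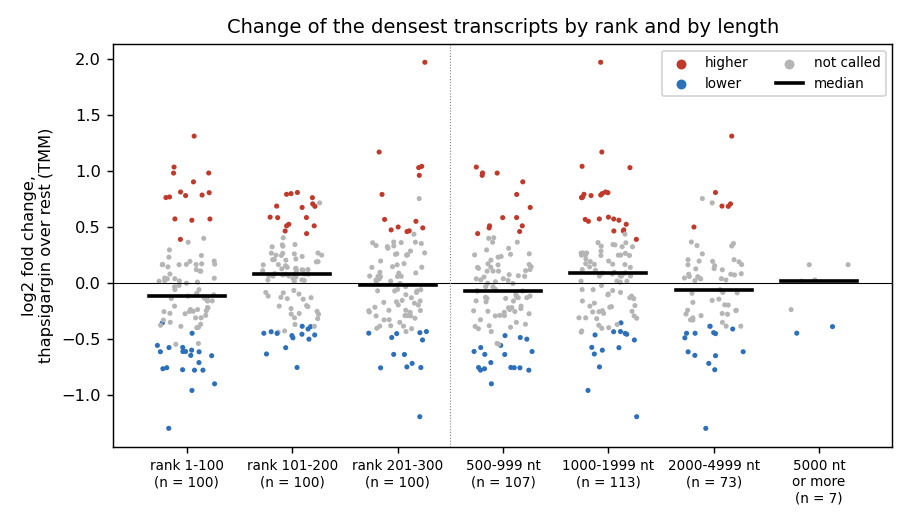
Log2 fold change of thapsigargin over rest (edgeR, TMM scaling) for the 300 densest transcripts, split by density rank on the left and by length on the right; each point is 1 transcript, coloured by call, and black bars are medians. Medians lie between -0.12 and 0.09 in all 7 classes, and calls of both directions occur in each class except that of 5000 nt or more, which has 0 higher.

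Rows next to each other in the table were described as runs. One run of 9 such rows, at rest ranks from 23 to 52 and of 1216 to 1445 nt, held 9 of the 44 higher calls. Its densities were 609 to 1024 TPM in rest replicate 1 and 594 to 967 in replicate 2, and 922 to 1353 and 889 to 1275 with thapsigargin. Each of the 9 was higher in both thapsigargin libraries than in both rest libraries. Their log2 fold changes ran from 0.56 to 0.81, with edgeR adjusted p from 3.43e-05 to 0.00189, and the 9 made up 4 groups once near-identical rows were merged, 2 of them single rows. All 9 stayed called when any 1 of the 4 libraries was left out. By limma on TPM 0 of 9 were called, with all 9 differences above 0.

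A run of 3 rows at ranks 55 to 59, of 671 to 724 nt, was also called higher throughout. It had 570 to 598 and 556 to 565 TPM at rest and 1002 to 1100 and 878 to 937 with thapsigargin, with log2 fold changes of 0.90 to 0.98. A run of 3 at ranks 28 to 105 was called lower throughout, with log2 fold changes from -0.78 to -0.45. Of the 64 runs, 7 had every row called higher, 9 had every row called lower, 43 had no call and 5 had both called and uncalled rows. None (0) held calls of both directions, and rows of a run can share reads. Runs among other rows were not counted, so nothing is read from these numbers. The longest uncalled stretch was a run of 7 at ranks 58 to 282, of 563 to 2868 nt, whose log2 fold changes of -0.44 to -0.20 all missed the threshold, with edgeR adjusted p from 0.0612 to 0.442. In TPM, all 7 were lower in both thapsigargin libraries than in both rest libraries.

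The scale mattered for some dense transcripts that were not called. A run of 4 rows at ranks 29 to 37, of 1096 to 1422 nt, had 769 to 898 and 697 to 816 TPM at rest and 604 to 730 and 644 to 801 with thapsigargin. Their log2 fold changes after TMM scaling lay between -0.06 and 0.02, with SE of 0.12, and edgeR's adjusted p was at least 0.845. In TPM, each of the 4 was lower in both thapsigargin libraries than in both rest libraries. The runs described here and ranks 205, 257 and 280 were not set in advance and were chosen for description with their values known. Other runs of 3 rows were also called throughout, some higher and some lower.

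The largest change of the 300 was at rest rank 214, a transcript of 1211 nt, singled out after its values were seen. It had 252 and 321 TPM at rest and 820 and 1147 with thapsigargin, where it was rank 22. The log2 ratio of 1.97 ± 0.19 (SE) passed in edgeR with an adjusted p of 5.94e-06. Both groups had wide spreads, and the distance between them was wider. Another 3 transcripts from the lower ranks had log2 fold changes above 1, all called by edgeR. Rank 205, of 1184 nt, had 284 and 304 TPM at rest and 544 and 515 with thapsigargin. Rank 257, of 1418 nt, had 241 and 283 TPM at rest and 512 and 526 with thapsigargin. Rank 280, of 1359 nt, had 235 and 268 TPM at rest and 481 and 433 with thapsigargin. In each of them both thapsigargin libraries lay above both rest libraries.

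The transcripts with the smallest p in each direction show the changes library by library. Transcript uc008rqq.2, of 2028 nt and rank 70 at rest, had 439 and 541 TPM at rest and 1044 and 1111 with thapsigargin. Its normalised level went from 437 CPM ± 89.1 to 1080 ± 94.2 (SD, n = 2 each). This rise of 1.31 ± 0.13 (SE) on the log2 scale passed in edgeR's fit over all rows (adjusted p = 6.02e-08), and the transcript was rank 13 with thapsigargin.

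Transcript uc007jvv.2, of 870 nt and rank 17 at rest, was the densest with thapsigargin among the rows ranked under the same exclusions. It had 1273 and 1202 TPM at rest and 2258 and 2240 with thapsigargin. The replicates lay close together in both groups, and its level rose from 471 CPM ± 7.94 to 966 ± 36.1 (SD, n = 2 each). The rise was 1.04 ± 0.12 (SE) on the log2 scale, past the threshold in edgeR (adjusted p = 4.73e-07). On the deposited TPM limma gave it a log2 difference of 0.86 with an adjusted p of 0.0716.

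Transcript uc007vmy.2, of 2916 nt and rank 78 at rest, had 484 and 442 TPM at rest and 152 and 183 with thapsigargin, where its rank was 543. It was at 590 CPM ± 4.54 at rest and 241 ± 42.2 with thapsigargin (SD, n = 2 each). It fell by 1.30 ± 0.13 (SE) on the log2 scale, with an adjusted p of 6.02e-08 in edgeR. The groups did not overlap, and the rest replicates differed by far less than the groups did.

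Transcript uc009mqb.1, of 1168 nt and rank 213 at rest, had the longest drop in rank, to 1012. It had 324 and 250 TPM at rest and 127 and 94.96 with thapsigargin. Its level was 146 CPM ± 18.4 at rest and 63.7 ± 10.3 with thapsigargin (SD, n = 2 each). It fell by 1.19 ± 0.14 (SE) on the log2 scale, with an adjusted p of 1.88e-06 in edgeR. For both of these transcripts the rest values that entered the fold change also entered the choice.

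**Figure D5:**
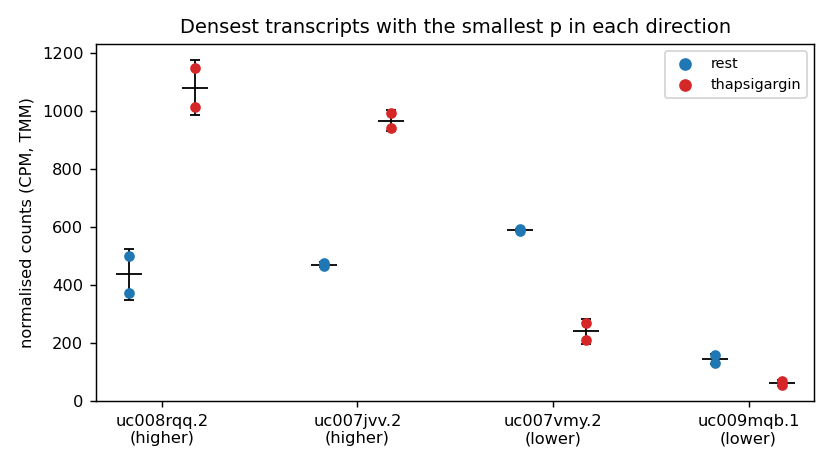
Normalised counts (CPM after TMM scaling) of the 4 named transcripts in each library, with points for libraries and bars for the mean ± SD of 2 libraries. In each of the 4 the thapsigargin points lie wholly above or wholly below the rest points.

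The share of a library held by the 300 depended on the unit. The rest values that chose the 300 set their rest shares, and only the thapsigargin shares are independent of the choice. They held 9.19% of all counts in rest replicate 1 (Wilson 95% interval 9.17 to 9.21) and 9.01% in replicate 2 (8.97 to 9.04). With thapsigargin they held 9.71% (9.69 to 9.73) and 9.90% (9.87 to 9.93). The intervals cover counting error only. The mean share was 9.10% ± 0.129 at rest and 9.80% ± 0.131 with thapsigargin (SD, n = 2 each), with an exact permutation p (two-sided) of 0.33, the lowest possible for 2 against 2 libraries.

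In TPM the direction was the opposite. The 300 held 14.3% and 14.2% of the TPM sum at rest and 13.0% and 12.7% with thapsigargin (exact permutation p = 0.33). Choosing the 300 on rest TPM favours a lower TPM share with thapsigargin, so nothing is read from this direction or its p. Without the most abundant transcript, which held 15.3% ± 3.88 of counts at rest and 8.89% ± 0.277 with thapsigargin (SD, n = 2 each), the 300 held 10.5% and 10.99% of the remaining counts at rest and 10.7% and 10.8% with thapsigargin, and the groups overlapped (exact permutation p = 1). Rows under 500 nt held 11.6% ± 0.761 of the TPM sum at rest and 17.9% ± 1.94 with thapsigargin (SD, n = 2 each), outside the uc007p and uc008q identifiers. TPM always sums to the same total, so a rise of some rows lowers the others.

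Replicate agreement with thapsigargin, which the rule did not use, was close. The median absolute log2 CPM difference between the thapsigargin replicates was 0.14 for the 300, 0.12 for the 2275 other deep rows and 0.23 for all rows tested. In the replicate 1 and replicate 2 libraries the log2 ratios of thapsigargin to rest had the same sign for 245 of the 300. Pearson's r across these transcripts was 0.862. These ratios hold the rest values that chose the 300, and some of the rows may share reads. Neither value was computed for other rows, so nothing is read from the count or from r.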

How the data were processed

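The members and lists were chosen with earlier results of these data known. Reads were trimmed with cutadapt 4.1 and aligned with STAR 2.7.0d, with GRCm38 and mm10 named as builds, per the submitters' processing notes. The counting tool, annotation release, multi-mapping and duplicate handling are not given in the sources used here. Per the file headers, the authors deposited whole-number counts and, separately, TPM, each with 1 column per library and 0 columns left over. Lengths were recovered from count over TPM, scaled to 5818 nt for uc012ath.2.

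Counts were tested on all rows with edgeR 4.0.16 in R 4.3.3 (filterByExpr with a minimum count of 10 and total of 15, TMM, robust quasi-likelihood F test, Benjamini-Hochberg over 29059 rows). The test was checked on simulated data. Shares of counts were compared by exact permutation. Log2 CPM used a prior count of 2, and log2 TPM a pseudocount of 0.5. A floor of 3 counts was 0.287 to 1.25 CPM.

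Identifiers were printed for the 2 members with the smallest p in each direction among called members whose groups did not overlap, 1 per near-identical set. The 10 densest and the 3 ranks on each side of the limit were given by rank. Alternatives were RLE and library-size scaling, other count filters, DESeq2 1.42.0, limma 3.58.1 (voom, and trend on TPM), a replicate block, other choices of members and leaving out libraries. Leaving out libraries for the count of calls, the choice of the 10, 50 and 100 densest on 1 rest library, and the comparison with rows of at least 500 mean counts were added after the data were seen.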

Additional observations from a re-analysis of the deposited data

How the results depend on the processing

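The count of 92 calls among the 300 was 24 (6 higher, 18 lower) with limma on the deposited TPM, 51 for the 150 densest and 176 for the 600 densest, and 59 to 82 when 1 library was left out, in fits that take the lone library of a group to vary like the other group. The lists of 150 and 600 rows differ in size from the 300, so their counts are not comparable with 92. The share called was 34.0% of the 150 and 29.3% of the 600, against 30.7% of the 300 and 7.41% of all rows. The count stayed within 1.5 times of 92 in 14 of the 17 other planned settings. The median log2 fold change, 0.018, moved by more than 1 SD between replicates (0.043) to 0.10 with library-size scaling, -0.16 on TPM, 0.21 for rows chosen on thapsigargin, 0.11 for rows chosen on all 4 libraries, and -0.045 for the 150 densest. It was -0.052 to 0.048 when 1 library was left out, a move past that SD without rest replicate 1 and without thapsigargin replicate 2 (-0.045). The difference in share of counts, 0.71 percentage points, became -1.40 on TPM, kept its sign in the other 12 settings and was 0.015 without the most abundant transcript. The share of the 300 among the densest with thapsigargin stayed between 76 and 88.3%. Against the unused rest library, the median for rows chosen on rest replicate 1 was 0.13 with library-size scaling and -0.13 on TPM, and on TPM it was -0.17 for rows chosen on replicate 2. The cause of these shifts was not tested. With the replicate number as a block, 135 were called, 62 higher and 73 lower, all 92 among them, with a median of 0.017, while the share called over all rows went from 7.41% to 12.4%. The labels do not say that a number marks a shared culture, and replicate differences correlated between groups with r = 0.0844 over all rows. Of 56 refits of the 4 named transcripts 55 kept the call and 0 reversed, the exception being uc007jvv.2 on TPM. In the reported fit the weakest calls of the 300 were 0.39 and -0.35 on the log2 scale.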

Other observations

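The 68 rows that entered the 300 densest with thapsigargin were chosen on thapsigargin values, which biases their change upward. Their rest ranks ran from 304 to 1824 with a median of 436, and 28 of them had rest ranks of at most 400. Their median length was 994 nt, against 1671 nt for the 68 that left. Their mean TPM had a median of 199 at rest and 281 with thapsigargin. In edgeR's quasi-likelihood test 51 of the 68 were called higher and 0 lower, where 3.74% of all rows were called higher. The 68 that left were chosen for high rest and lower thapsigargin values, which fixes the direction of their change. Of these, 27 were called lower and 0 higher, where 3.67% of all rows were called lower, and nothing is read from either count.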
